A study of Homo sapiens with 12 samples.

Results

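Nucleic acid sensors are proteins that bind RNA or DNA found in the wrong place in a cell, such as viral RNA in the cytosol or DNA outside the nucleus. RIG-I and MDA5 pass the signal to the adaptor MAVS on mitochondria, TLR3 to the adaptor TRIF in endosomes and cGAS, through a cyclic dinucleotide, to STING on the endoplasmic reticulum, and these routes meet at the kinases TBK1 and IKKε and at type I interferon genes. Many sensors are themselves interferon-stimulated genes, so cells exposed to interferon can carry more of them. IFNγ acts through transcription factors that bind GAS and ISRE elements in promoters.

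The 10 genes described here were given as a list, out of 40173 gene IDs measured, and the rule for them used no measured value, although the list was made with earlier results of these data known. They are the RIG-I-like receptors RIGI, IFIH1 and DHX58, the RNA and Z-nucleic acid sensors EIF2AK2, ZBP1 and TLR3, and the DNA sensing genes CGAS, STING1, IFI16 and TREX1. RNA of 624Mel cells, an established human melanoma line, was sequenced in 4 conditions with 3 libraries each. Cells were reverse transfected with a control siRNA (siCTRL) or an siRNA against MITF (siMITF), the transcription factor that keeps melanocytic cells pigmented and differentiated. IFNγ (5 ng/mL) was added 24 h after transfection for 24 h, and the siCTRL and siMITF cells without IFNγ carried the siRNA alone. All 4 conditions thus hold transfected cells of a single line. The p-values rest on the spread between libraries of the same condition, in a single estimate per gene shared by all 4 conditions. A library outside a comparison can therefore change its p-value. The labels do not describe the replicates, while the study's methods state that its experiments used independent biological replicates. The question was how MITF loss changes what IFNγ does to these genes.

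Values are TPM, a share of all transcripts in a library scaled for transcript length, so that levels can be compared between genes. In these bulk samples, fewer cells expressing a gene and less of its RNA per cell cannot be told apart. MITF was 187, 229 and 217 TPM in siCTRL libraries and 36.0, 49.7 and 41.7 TPM in siMITF libraries, so all siMITF libraries were lower. All 7 melanocyte markers exceeded 2 TPM, while 6 of 8 leukocyte markers stayed under 1 TPM in all 12 libraries and CD3E was listed at 0. The leukocyte markers summed to between 2.83 and 3.26 TPM in siCTRL libraries and between 4.74 and 5.65 TPM in siMITF libraries, mostly LYZ, and their part in the siMITF comparisons was not tested. Mitochondrial transcripts held 7.42%, 8.45%, 10.1% and 12.7% of the TPM in the replicate 2 libraries of siCTRL cells without and with IFNγ and of siMITF cells without and with IFNγ, the lowest library of each condition, and between 12.8% and 16.9% in the others. Their part in the results was not tested, and calls that rest on replicate 2 are given without it below.

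At rest the 10 genes spanned more than 3 orders of magnitude. In siCTRL libraries IFI16, an AIM2-like receptor for DNA, stood between 173 and 196 TPM and EIF2AK2, which encodes the RNA-activated kinase PKR, at 31.4 ± 2.73 TPM (SD, n = 3). TREX1, the cytosolic exonuclease that degrades DNA, was at 11.7 ± 0.733 TPM and STING1, the adaptor of the cGAS route, at 4.38 ± 0.254 TPM. ZBP1, TLR3, IFIH1 and RIGI followed at 2.40, 2.05, 1.95 and 1.59 TPM, and each of these overlapped its neighbour in the order. DHX58 lay between 0.407 and 0.544 TPM. CGAS, the enzyme that makes the second messenger for STING, lay between 0.00622 and 0.0823 TPM over all 12 libraries, with overlapping conditions, and could not be compared. STING1 was therefore measured well above CGAS in every library. The order of the means in IFNγ-treated siCTRL libraries was IFI16, EIF2AK2, RIGI, IFIH1, TREX1, STING1, TLR3, DHX58, ZBP1 and CGAS. RIGI thus moved from the eighth place to the third, and the libraries of RIGI and IFIH1, of IFIH1 and TREX1 and of STING1 and TLR3 overlapped.

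**Figure D1:**
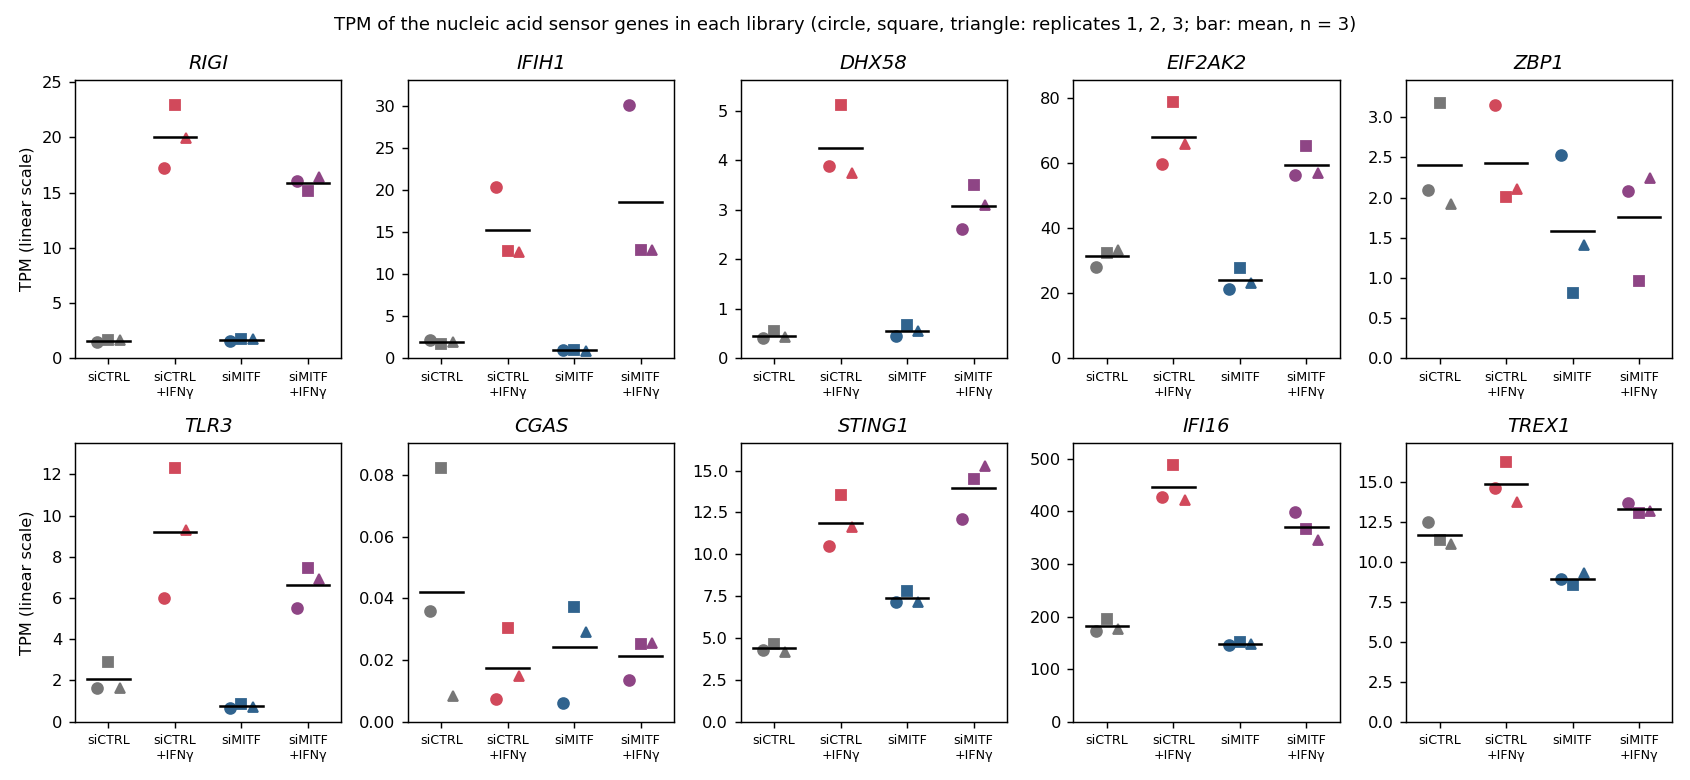
TPM (y axis, linear, each panel with its own scale from 0) of the 10 sensor genes in the 4 conditions (x axis). Points are single libraries, with the circle, square and triangle for replicates 1, 2 and 3, and bars are means of 3. RIGI, IFIH1, DHX58 and TLR3 rise from between 0.41 and 2.88 TPM without IFNγ to between 2.62 and 30.0 TPM with it, ZBP1 overlaps throughout and CGAS stays under 0.09 TPM.

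Promoter sequence was examined because 8 of the 10 genes rose with IFNγ. RefSeq windows of 300 bases (GRCh38.p14, from 250 bases before to 50 after a start site) were held for 6 of the 10 genes, namely RIGI, IFIH1, EIF2AK2, TLR3, TREX1 and, with 2 windows, IFI16. Both strands were searched for GAAANNGAA, the spaced repeat at the core of the ISRE, for the shifted form GAANNGAAA, added after the windows were seen, and for the GAS element TTCNNNGAA. The shifted form and the core can overlap. The form listed first was found in 4 of the 6 genes, against 8.11% of all 35116 windows. With the shifted form, through which RIGI alone was added, it was 5 of the 6, against 14.5%, and TREX1 was the exception. As the shifted form was picked on these windows, and genes are set against single windows, these counts are no test. Of the other genes of the pathway, described further below, 12 of the 32 with a window held either form. The stretches below run 5′ to 3′ on the strand of the gene, with the matches in capitals, and show where the letters lie in the genes whose response is described next.
RIGI, chr9:32526381-32526409, minus strand: ggtgcggaggGAAACGAAActagcccgag
IFIH1, chr2:162318818-162318858, minus strand: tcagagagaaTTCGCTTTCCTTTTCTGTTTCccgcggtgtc
IFIH1, chr2:162318687-162318720, minus strand: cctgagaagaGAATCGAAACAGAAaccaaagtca
EIF2AK2, chr2:37156978-37156996, minus strand: agtccaagggGAAAACGAA
TLR3, chr4:186068968-186068996, plus strand: ctgtgaccctTTCAATGAAatccaaggat
TLR3, chr4:186069096-186069124, plus strand: ccctttgcccTTCTTGGAAtgcaccaaac
TLR3, chr4:186069143-186069161, plus strand: aagctttactTTCACTTTC
IFI16, chr1:159009823-159009871, plus strand: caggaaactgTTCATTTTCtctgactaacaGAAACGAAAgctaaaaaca
The upper IFIH1 stretch held 3 overlapping cores on the opposite strand with the first at base -164 from the start, and the lower one held a shifted form at -26 that overlaps a core at -21. Of the 6 genes, TLR3 alone held the GAS letters, at -178 and -50, which occur in 7.66% of all windows, besides an ISRE core that runs from -3 across the start. In EIF2AK2 the core began at -6. In RIGI the shifted form began at -203, and IFI16 had a core at -74 and a shifted form at -54 in its second window. In the GENCODE annotation the EIF2AK2 and TLR3 stretches overlap 5′ exons of other transcripts of the same gene, and the IFI16 stretch lies in introns of longer transcripts. The upper IFIH1 stretch overlaps an exon of the neighbouring gene GCA, and the RIGI stretch lies in an intron of an unnamed coding gene model on the same strand that overlaps RIGI and is not used here. Of the letters that MITF binds, CACGTG stood in the EIF2AK2 window at -181 (7.26% of all windows) and CATGTG in the second IFI16 window at -103 on the opposite strand (11.1% of all windows). These matches are descriptions of letters and no evidence of binding.

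The RIG-I-like receptors gave the largest log2 changes of the list with IFNγ in siCTRL cells, while in siMITF cells TLR3 came before DHX58. RIGI encodes RIG-I, which binds short RNA with a 5′ triphosphate, and lies at chr9:32455302-32526208. It measured 1.44, 1.63 and 1.70 TPM in siCTRL libraries and 17.2, 22.9 and 19.9 TPM after IFNγ. All treated libraries lay at least 10 times above the untreated ones. The fitted log2 change was 3.01 ± 0.11 (SE, limma adjusted p = 3.6e-10), the 74th largest rise of the 12773 gene IDs tested. In siMITF libraries RIGI went from 1.58, 1.79 and 1.71 TPM to 16.1, 15.2 and 16.4 TPM, a log2 change of 2.65 (limma adjusted p = 1.07e-09), so its resting level overlapped that of siCTRL cells and its induced libraries all lay below the induced siCTRL libraries.

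IFIH1 encodes MDA5, the receptor for long RNA duplexes, and lies at chr2:162267074-162318684. It was at 2.24, 1.65 and 1.96 TPM in siCTRL libraries, and IFNγ brought it to 20.3, 12.7 and 12.7 TPM (log2 change 2.43 ± 0.27, limma adjusted p = 3.92e-05). With siMITF it was at 0.936, 1.01 and 0.906 TPM before and 30.0, 12.9 and 12.9 TPM after IFNγ (log2 change 3.22, limma adjusted p = 2.24e-06). Untreated and treated libraries were far apart with either siRNA. Replicate 1 was the high library in both IFNγ conditions. Without the siMITF + IFNγ library of replicate 1 the log2 change in siMITF cells was 2.83, and without the siCTRL + IFNγ library of replicate 1 that in siCTRL cells was 2.22.

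DHX58 encodes LGP2, a RIG-I-like receptor without the signalling domain that modulates the other receptors. It measured 0.407, 0.544 and 0.430 TPM in siCTRL libraries and 3.88, 5.12 and 3.75 TPM after IFNγ (log2 change 1.84, limma adjusted p = 4.03e-07). In siMITF libraries it went from 0.442, 0.674 and 0.550 TPM to 2.62, 3.50 and 3.10 TPM (log2 change 1.39, limma adjusted p = 6.05e-06). The induced siMITF libraries all lay below the induced siCTRL libraries, as they did for RIGI. Because 1 TPM was added before the log2 transformation, the log2 change understates the response of such a low gene. The ratio of mean TPM was 9.24 in siCTRL and 5.53 in siMITF cells, against 12.6 and 9.36 for RIGI and 7.82 and 19.6 for IFIH1. RIGI, IFIH1 and DHX58 entered the test only through their IFNγ-treated levels, because the filter asked for a mean of 2 TPM in at least 1 condition.

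Of the other RNA sensors, TLR3 and EIF2AK2 rose with IFNγ. TLR3, the endosomal receptor for RNA duplexes, at chr4:186068911-186088073, measured 1.64, 2.88 and 1.63 TPM in siCTRL libraries and 6.01, 12.3 and 9.29 TPM after IFNγ (log2 change 1.72 ± 0.22, limma adjusted p = 0.000131). In siMITF libraries it went from 0.650, 0.866 and 0.717 TPM to 5.53, 7.47 and 6.93 TPM (log2 change 2.12, limma adjusted p = 1.5e-05), and the ratio of mean TPM was 4.48 in siCTRL and 8.92 in siMITF cells. Replicate 2 was the highest library in each of the 4 conditions.

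EIF2AK2, whose product phosphorylates eIF2α when it binds RNA duplexes, was at 28.3, 32.6 and 33.3 TPM in siCTRL libraries and 59.8, 78.8 and 66.1 TPM after IFNγ (log2 change 1.09, limma adjusted p = 4.63e-05). In siMITF libraries it went from 21.2, 27.9 and 23.3 TPM to 56.3, 65.5 and 56.9 TPM (log2 change 1.27, limma adjusted p = 9.05e-06). Treated and untreated libraries did not overlap. The gene overlaps GPATCH11 on the opposite strand, and whether the counting used strand is not given in the sources used here.

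ZBP1, the sensor of Z-form nucleic acids that can lead to necroptosis, was the tested gene without an IFNγ response. It measured 2.10, 3.18 and 1.92 TPM in siCTRL libraries, 3.16, 2.01 and 2.11 TPM with IFNγ, 2.53, 0.812 and 1.41 TPM with siMITF and 2.08, 0.962 and 2.24 TPM with both. All 4 conditions overlapped. The log2 change with IFNγ was 0.01 in siCTRL cells (95% confidence interval -0.54 to 0.57, limma adjusted p = 0.982) and 0.12 in siMITF cells (-0.44 to 0.67, limma adjusted p = 0.788).

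Among the DNA sensing genes, IFI16 and STING1 rose with IFNγ in both siRNA arms and TREX1 rose less. IFI16 (chr1:158999968-159055155) measured 173, 196 and 177 TPM in siCTRL libraries and 429, 488 and 423 TPM after IFNγ (log2 change 1.29 ± 0.08, limma adjusted p = 8.73e-08). In siMITF libraries it went from 146, 151 and 148 TPM to 398, 367 and 345 TPM (log2 change 1.31, limma adjusted p = 6.3e-08). In each treatment the siMITF libraries lay below all siCTRL libraries, and the IFNγ changes in the siRNA arms differed by 0.02 on the log2 scale.

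STING1 (chr5:139475533-139482935) was at 4.29, 4.66 and 4.18 TPM in siCTRL libraries and 10.5, 13.5 and 11.6 TPM after IFNγ (log2 change 1.25, limma adjusted p = 4.95e-06). In siMITF libraries it started higher, at 7.15, 7.82 and 7.17 TPM, and reached 12.1, 14.5 and 15.3 TPM (log2 change 0.83, limma adjusted p = 0.000194). The resting libraries were separate, while the induced libraries of the siRNA arms overlapped.

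TREX1 measured 12.5, 11.4 and 11.1 TPM in siCTRL libraries and 14.6, 16.2 and 13.7 TPM after IFNγ (log2 change 0.32, limma adjusted p = 0.0282). In siMITF libraries it went from 8.94, 8.57 and 9.32 TPM to 13.7, 13.1 and 13.2 TPM (log2 change 0.53, limma adjusted p = 0.000941). Libraries did not overlap in either arm, but the call in siCTRL cells was lost when siCTRL replicate 2 (limma adjusted p = 0.0923), siCTRL replicate 3 (0.11) or siCTRL + IFNγ replicate 2 (0.0703) was left out. TREX1 (chr3:48465811-48467645) lies within ATRIP on the same strand, so its values are uncertain where reads fit both.

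Over the list, 8 of the 9 tested genes were higher with IFNγ at an adjusted p under 0.05 in siCTRL cells, where 6.8% of all tested gene IDs were higher and 6.14% lower. In siMITF cells the count was again 8 of 9, against 7.99% of all gene IDs higher and 12.2% lower. With a log2 change of at least 1 required as well, 7 genes remained in siCTRL cells (2.42% of all gene IDs) and 6 in siMITF cells (2.72%), the difference being STING1. In 8 of the 9 genes all 3 treated libraries lay above all 3 untreated ones in each arm, compared with 11.7% and 12.1% of all tested gene IDs. The median log2 change of the tested sensor genes was 1.29 in siCTRL and 1.31 in siMITF cells, where that of all gene IDs was -0.07 and -0.10. Since 3 of these genes entered through their treated levels, the counts are descriptions of the list.

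**Figure D2:**
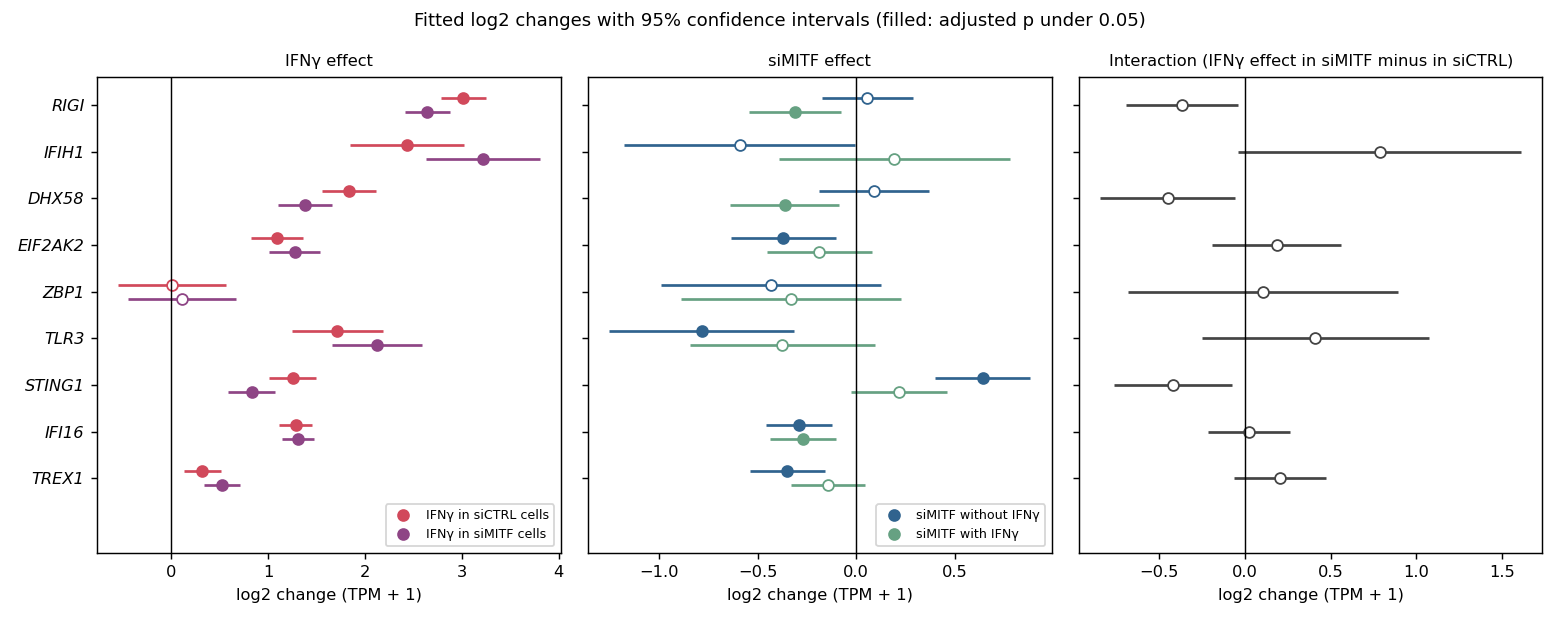
Fitted log2 changes of TPM + 1 (x axis) for the 9 tested sensor genes (y axis), with 95% confidence intervals, for the IFNγ effect, the siMITF effect and their interaction. Filled points have an adjusted p under 0.05. With IFNγ 8 of 9 are filled in each arm, STING1 is the filled point to the right of 0 among the siMITF effects, and none of the interactions is filled.

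MITF knockdown alone changed 5 of the 9 tested genes, in opposite directions within the list, and of these TREX1 alone changed by as much as with IFNγ in siCTRL cells. STING1 rose, with a log2 change of 0.64 ± 0.11 (limma adjusted p = 0.000731) and a ratio of mean TPM of 1.69. TLR3 fell by 0.78 on the log2 scale (limma adjusted p = 0.0133), a value that the added 1 TPM makes smaller, and its ratio of mean TPM was 0.363. EIF2AK2 fell by 0.37 (limma adjusted p = 0.0333), TREX1 by 0.35 (limma adjusted p = 0.00748) and IFI16 by 0.29 (limma adjusted p = 0.0113) on the same scale. In each of these 5 genes the siMITF libraries did not overlap the siCTRL libraries. Over all tested gene IDs, all siMITF libraries lay above all siCTRL libraries in 33% and below them in 22%, so such separation was common. IFIH1 was also below siCTRL in every siMITF library, with a ratio of mean TPM of 0.488 and a log2 change of -0.59. Its limma adjusted p was 0.11, or 0.0233 with the replicate number as a block. RIGI and DHX58 had log2 changes of 0.06 and 0.09 and overlapping libraries.

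Thus 1 sensor gene was higher and 4 were lower with siMITF at an adjusted p under 0.05, against 21% and 13.8% of all tested gene IDs, and the median log2 change was -0.35 against 0.06. An unadjusted p under 0.05 was found for 6 of 9 (limma), against 43.7% of all gene IDs. None reached a log2 change of 1, against 6.1%. With a pseudocount of 0.1 or 0.5 in place of 1, TLR3 passed that limit. The TLR3 result also rested on siCTRL replicate 2, its highest resting library, without which the limma adjusted p was 0.0598. The EIF2AK2 call was lost without siCTRL replicate 2 or 3 or siMITF replicate 1 or 3 (limma adjusted p from 0.0916 to 0.141).

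Under IFNγ, siMITF libraries were lower than siCTRL libraries for IFI16 by 0.27 (limma adjusted p = 0.0181), for RIGI by 0.31 (limma adjusted p = 0.041) and for DHX58 by 0.36 (limma adjusted p = 0.0454) on the log2 scale, without overlap of libraries. These 3 of 9 lower genes and 0 higher genes stand against 14.7% and 18.4% of all tested gene IDs. TREX1, whose change did not pass, also had all siMITF libraries below all siCTRL libraries. All 3 siMITF libraries lay below all siCTRL libraries in 17% of all tested gene IDs and above them in 21.3%. None of the 9 passed the fold limit, against 5.68%, and 3 of 9 had an unadjusted p under 0.05 (limma), against 42.6%. With the replicate number as a block 5 of 9 were lower, as EIF2AK2 (log2 change -0.19, limma adjusted p = 0.274 without and 0.0441 with the block) and TLR3 (-0.38, 0.207 and 0.0428) were added. The shares of all gene IDs above are not from the fit with the block. The RIGI and DHX58 calls were each lost in 10 of the 12 fits that left out 1 library, with a limma adjusted p of up to 0.144 and 0.166, both without siCTRL + IFNγ replicate 2, and also with a pseudocount of 0.1 (limma adjusted p = 0.0632 and 0.119). The IFI16 call was lost without siCTRL + IFNγ replicate 2 (0.0637) and without siMITF + IFNγ replicate 2 (0.0506) or 3 (0.071). IFIH1, STING1 and TREX1 had log2 changes of 0.19, 0.22 and -0.15 that did not pass, and for IFIH1 the sign turned to -0.19 without siMITF + IFNγ replicate 1.

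STING1 and IFI16 moved apart with MITF knockdown, since one rose and the other fell. Within each library, IFI16 was 40.4 to 42.4 times STING1 in TPM in siCTRL cells and 19.3 to 20.7 times in siMITF cells. With IFNγ the ratio was 36.1 to 40.9 in siCTRL and 22.6 to 33.0 in siMITF cells. The ranges of the siRNA arms did not overlap with or without IFNγ. TREX1 was 2.44 to 2.91 times STING1 in siCTRL cells and 1.10 to 1.30 times in siMITF cells, again without overlap. Under IFNγ it was 1.183 to 1.396 times STING1 in siCTRL and 0.8634 to 1.132 times in siMITF cells. The ratio of TREX1 to STING1 was thus also lower with IFNγ alone. Without IFNγ, the separation of both ratios follows from the separate libraries of the single genes given above. It is therefore no further evidence.

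The interaction asked whether the log2 change with IFNγ differed between siMITF and siCTRL cells. It passed for 0 of the 9 tested sensor genes, against 0.947% of all gene IDs. An unadjusted p under 0.05 was found for 3 of 9 (limma), against 7.67% of all gene IDs. The 3 genes were RIGI, with an interaction of -0.37 (95% confidence interval -0.69 to -0.04, limma adjusted p = 0.551), DHX58, with -0.45 (-0.85 to -0.06, limma adjusted p = 0.515), and STING1, with -0.42 (-0.77 to -0.08, limma adjusted p = 0.455). The STING1 interaction passed when each library was centred on its median (limma adjusted p = 0.0403). IFIH1 and TLR3 had positive interactions of 0.79 (-0.04 to 1.61) and 0.41 (-0.25 to 1.07), whose intervals reach from below 0 to a change of over 1. Without siMITF + IFNγ replicate 1 that of IFIH1 was 0.40, and leaving out siCTRL + IFNγ replicate 1 or 2 moved that of TLR3 to 0.16 or 0.62. That of IFI16 was 0.02, with an interval from -0.22 to 0.26.

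**Figure D3:**
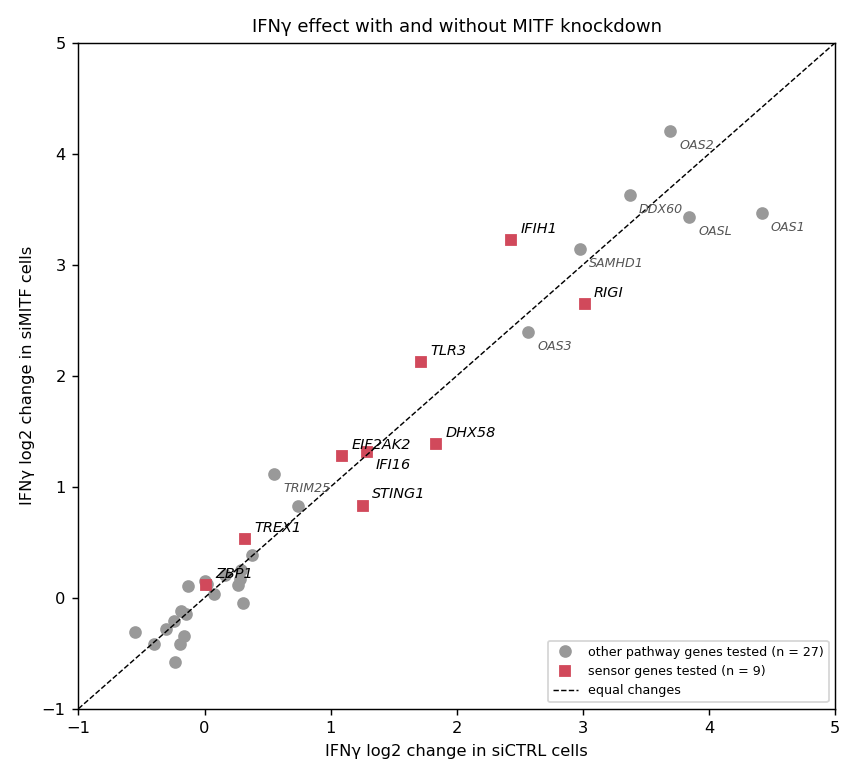
Fitted log2 change with IFNγ in siCTRL cells (x axis) and in siMITF cells (y axis), for the 9 tested sensor genes (squares) and 27 other tested genes of the pathway (circles). The dashed line marks equal changes. IFIH1 (2.43 and 3.22) and TLR3 (1.72 and 2.12) lie above the line and RIGI (3.01 and 2.65), DHX58 (1.84 and 1.39) and STING1 (1.25 and 0.83) below it, while none of the sensor genes passed the interaction test.

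Against siCTRL cells, the combination of siMITF and IFNγ raised RIGI by 2.70, IFIH1 by 2.63, DHX58 and STING1 by 1.47 each, TLR3 by 1.34, IFI16 by 1.02 and EIF2AK2 by 0.90 on the log2 scale (limma adjusted p from 6.37e-10 to 0.000284). These 7 of 9 genes, 6 of them with a log2 change of at least 1, stand against 21.1% and 5.61% of all tested gene IDs, and 0 sensor genes were lower, against 23.4%. TREX1 had a log2 change of 0.18 (limma adjusted p = 0.115), with the IFNγ rise and the siMITF fall on opposite sides, and ZBP1 one of -0.32 (limma adjusted p = 0.342). RIGI, IFIH1 and DHX58 entered the test only through their IFNγ-treated levels, which are on the raised side here, so these counts are descriptions of the list. This comparison shares its libraries with those above.

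On the linear scale, the combined level was set beside the sum of single effects, that is the siCTRL mean plus the 2 separate differences in mean TPM, as a description with no test. The combined mean of RIGI was 15.9 TPM against a sum of 20.1, below the sum in all 3 libraries. DHX58 was at 3.07 against 4.35 TPM, TLR3 at 6.64 against 7.89 TPM and IFI16 at 370 against 413 TPM, also below in all 3 libraries. For TLR3 this is the opposite sign to its interaction on the log2 scale. The sum is taken from condition means and its own spread is not counted. In TLR3 the siCTRL + IFNγ libraries, which enter the sum, had an SD of 3.14 TPM. TREX1 was at 13.3 against 12.1 TPM, above in all 3 libraries. For IFIH1 the combined mean of 18.6 TPM exceeded the sum of 14.2, but replicate 1 alone was above it, while the others, both at 12.9 TPM, were below. EIF2AK2 was at 59.6 against 61.0 TPM and STING1 at 14.0 against 14.9 TPM, with libraries on both sides of the sum.

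**Figure D4:**
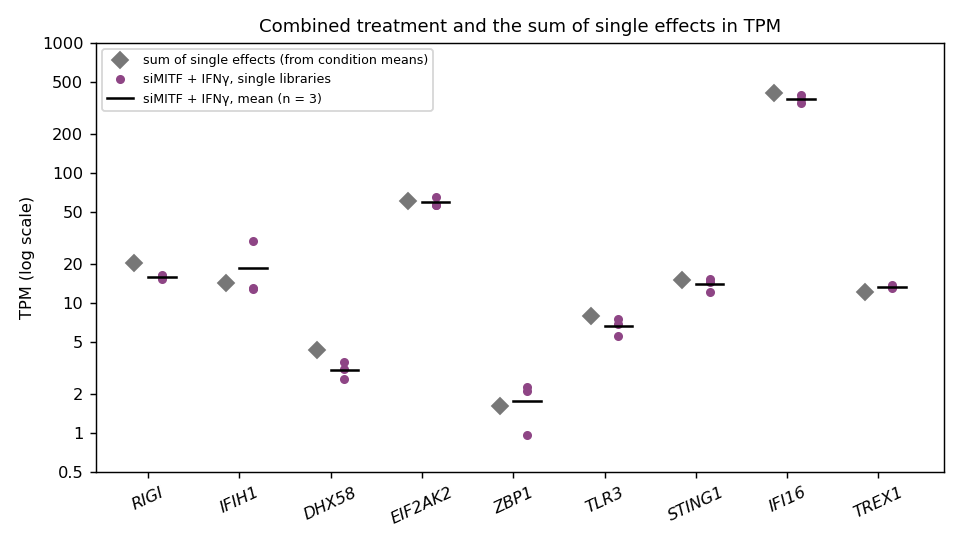
TPM (y axis, log scale) of the 9 tested sensor genes in siMITF + IFNγ libraries (circles, with the mean of 3 as a bar) beside the sum of single effects from the means of the other conditions (diamonds). RIGI (15.9 against 20.1 TPM), DHX58, TLR3 and IFI16 lie below the diamond in every library, TREX1 lies above it, and replicate 1 of IFIH1 stands at 30.0 TPM above a sum of 14.2.

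The other genes of the pathway were a list of 41, of which 27 were tested. The genes with the largest IFNγ rises among them were OAS1, OAS2, OAS3 and OASL, of the family whose members make 2′-5′ oligoadenylate on RNA duplexes or, for OASL, assist RIG-I, DDX60, a helicase linked to RIG-I, and SAMHD1, which hydrolyses dNTPs. Their log2 changes ran from 2.56 (OAS3) to 4.42 (OAS1) in siCTRL cells and from 2.39 (OAS3) to 4.21 (OAS2) in siMITF cells. OAS2, OASL and DDX60 entered the test only through their IFNγ-treated levels, so counts of raised genes that include them are descriptions. ADAR, which edits RNA duplexes and restrains MDA5 and PKR, rose by 0.74 on the log2 scale in siCTRL cells (limma adjusted p = 0.0133), a call lost without siCTRL + IFNγ replicate 3 (0.0572) or siCTRL replicate 1. In all, 8 of 27 were higher and 1 was lower with IFNγ in siCTRL cells, against 6.8% and 6.14% of all tested gene IDs, the latter RNASEH2B (log2 change -0.55, limma adjusted p = 9.49e-05), a subunit of the RNase that removes RNA from DNA hybrids. In siMITF cells 9 were higher and 3 lower, against 7.99% and 12.2% of all gene IDs, so the share of lower genes was near the background. The 3 were the subunits of that RNase, and the fall of RNASEH2C (limma adjusted p = 0.0187) was lost without siMITF replicate 2 or 3 (up to 0.0795). With the replicate block the lower counts became 4 and 6 and the higher counts 11 and 11, and the share of all gene IDs in that fit is not given here. The ubiquitin ligase TRIM25, which acts on RIG-I, rose in siMITF cells (log2 change 1.11, limma adjusted p = 0.00217), and in siCTRL cells its log2 change was 0.55 (limma adjusted p = 0.105, or 0.000911 with the block).

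The median log2 change of the 27 genes was 0.16 in siCTRL and 0.12 in siMITF cells, below those of the sensor genes. None of the adaptors and kinases between the sensors and interferon genes (MAVS, TICAM1, TRAF3, TRAF6, TANK, TBK1 and IKBKE) was among the genes that rose with IFNγ. The interferon genes IFNB1, IFNL1, IFNL2 and IFNL3 were listed at 0 in all 12 libraries. CCL5, another product in the list, was under the filter. Its means were 0.21 TPM in siCTRL libraries, 0.27 with IFNγ, 0.20 with siMITF and 0.85 with both, where all libraries lay above every other library. AIM2, the inflammasome DNA sensor, was under the filter, with 0.0507, 0.0215 and 0.0791 TPM in siCTRL libraries, 0.855, 0.775 and 0.572 TPM with IFNγ, 0.0133, 0.0368 and 0 TPM with siMITF and 2.23, 1.26 and 1.38 TPM with both. Its 3 libraries of the combination all lay above every other library.

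With siMITF alone, 5 of the 27 genes were higher and 2 lower, shares under the 21% and 13.8% of all gene IDs. With the replicate block 5 were lower, without a share of all gene IDs from that fit to set beside them. MAVS rose by 0.51 (limma adjusted p = 0.00089) and IKBKE, which encodes IKKε, by 0.54 (limma adjusted p = 0.00575) on the log2 scale. MAVS measured 19.9, 21.9 and 20.3 TPM in siCTRL and 29.9, 31.7 and 28.0 TPM in siMITF libraries, which did not overlap, as in 33% of all tested gene IDs in that direction. SAMHD1 rose by 0.48, OAS1 by 0.71 and RNASEH2C by 0.31, the last a call (limma adjusted p = 0.0463) lost in 7 of the 12 fits without 1 library (up to 0.157, without siMITF replicate 3). TRIM25 fell by 0.997 on the log2 scale, just under the fold limit (limma adjusted p = 0.00232), from 60.6, 81.1 and 67.0 TPM to 30.9, 40.2 and 31.9 TPM, without overlap. All siMITF libraries lay below all siCTRL libraries in 22% of all tested gene IDs. Under IFNγ, 7 were higher and 4 lower with siMITF, against 18.4% and 14.7% of all gene IDs, with MAVS (0.47), IKBKE (0.54), OAS2 (0.56) and SAMHD1 (0.65) among the higher and OASL (-0.36) among the lower on the log2 scale. None of these siMITF effects reached the fold limit, against 6.1% and 5.68% of all gene IDs without and with IFNγ. An unadjusted p under 0.05 was found for 10 of 27 without and 11 of 27 with IFNγ (limma), against 43.7% and 42.6%.

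In the combination against siCTRL cells, 11 of the 27 were higher and 5 lower, against 21.1% and 23.4% of all gene IDs. SAMHD1 went from 13.1, 16.0 and 14.8 TPM to 186, 202 and 186 TPM, a log2 change of 3.63 (limma adjusted p = 1.67e-10). For the interaction 0 of 27 passed, against 0.947% of all gene IDs, and 5 of 27 had an unadjusted p under 0.05 (limma), against 7.67%. With the block OAS1 (interaction -0.95, limma adjusted p = 0.1 without and 0.0283 with the block) and TRIM25 (0.0464 with the block) passed. The share of all gene IDs with the block is not given here.

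The genes most alike were found over all tested genes by the root mean square difference of the 3 log2 changes from siCTRL (IFNγ, siMITF and both), with no test. For RIGI these were IFIT2 (0.0842), PSMB8 and C20orf141. For IFIH1 they were PARP9 (0.152) and TRIM21 among others, and for TLR3 FRMD4A (0.156), HERC6 and APOL2. For STING1 they were VWA1 (0.115), RUNX1 and RPLP0P2, and for IFI16 TENT5C (0.0953), LY96 and FZD5, of which LY96 was also the second for EIF2AK2. DHX58 was most like MAF (0.101), EIF2AK2 like NUPR1 (0.0929), TREX1 like PSMA6 (0.0194) and ZBP1 like MBLAC2 (0.0159). The likeness covers 4 conditions in a single line.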

How the data were processed

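RNA of 12 samples of 624Mel cells was sequenced. The authors trimmed reads with Trimmomatic 0.39 and quantified transcripts with kallisto 0.46.1 on the Ensembl GRCh38 transcriptome. The deposited values are TPM per gene ID, and the tool that summed transcripts is not given in the sources used here. The study's DESeq2 1.26.0 fit on counts was not used here. TPM keep no depth, so counting intervals and floors are not given.

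TPM were transformed as log2(TPM + 1). All 12 libraries entered a single linear model (limma 3.58.1, R 4.3.3), in which every condition had its own coefficient and variances were moderated with a trend. It covered 12773 gene IDs, those whose mean reached 2 TPM in 1 or more conditions. Tests were two-sided, with Benjamini-Hochberg adjustment across these IDs. Passing means an adjusted p under 0.05, and the fold limit also asks for a log2 change of 1 or more in size and a 2 TPM mean in a compared condition. The fit was tested on simulated data. Of the sensor genes 9 of 10 were tested, all but CGAS.

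The labels' replicate numbers were checked for pairing. After condition means were subtracted, the 18 pairs of libraries with the same number had correlations across genes of 0.102 to 0.625 (median 0.28). The 36 pairs with different numbers in different conditions had -0.47 to 0.226 (median -0.196). The number was therefore also fitted as a block, and p-values given without mention of the block are from fits without it. Shares of gene IDs passing a test are from the fit without the block, and none is given for the block. Gene positions are from GENCODE 44 (GRCh38), promoter windows from RefSeq (GRCh38.p14). Named genes were all sensor genes, genes of the 41-gene pathway list, check and marker genes, and the 3 most alike genes of each sensor gene. Some genes of these lists are not reported here, though counts over a list include them. The members and lists were chosen with earlier results of these data known. Alternatives were pseudocounts of 0.1 and 0.5, no filter, a mean of 5 TPM, quantile normalization, median centring, no trend, the block, only the 2 conditions compared, TPM summed by symbol, fold limits of 1.5 or on mean TPM, an adjusted p under 0.01 and each library left out.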

Additional observations from a re-analysis of the deposited data

How the results depend on the processing

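Of 1161 values of the sensor genes under an alternative, 1089 kept their direction and side of the threshold, 43 no longer passed, 12 newly passed and 17 changed sign, none of the last past the test. The counts of sensor genes past the fold limit with IFNγ, with the combination and for the interaction stayed within 1.5 times under every alternative run. With siMITF alone the count of 0 became 1 with a pseudocount of 0.1 or 0.5 and with the fold limit on mean TPM (TLR3), and 2 with a fold limit of 1.5 (TLR3 and STING1). For the pathway list it went from 0 to 2 with a pseudocount of 0.1, to 1 with 0.5, quantile normalization or median centring, to 3 with a fold limit of 1.5 or on mean TPM, and to between 0 and 1 without 1 library (TRIM25, without siCTRL replicate 1 or 3 or siMITF replicate 2). With siMITF under IFNγ it became 2 with a fold limit of 1.5 and 1 on mean TPM, and for the interaction it was 0 to 1 without 1 library (OAS1, without siMITF replicate 3). Under quantile normalization the log2 changes of ZBP1 with IFNγ were -0.0453 in siCTRL and -0.0319 in siMITF cells, and those of RIGI and DHX58 with siMITF -0.13 and -0.063. Leaving out each library in turn gave ZBP1 a range from -0.13 to 0.17 with IFNγ in siCTRL cells, from -0.11 to 0.37 in siMITF cells and from -0.13 to 0.35 for the interaction. The same range was -0.19 to 0.41 for IFIH1 with siMITF under IFNγ and -0.033 to 0.087 for the IFI16 interaction. TLR3 with siMITF under IFNγ passed without siCTRL + IFNγ replicate 1 (limma adjusted p = 0.0245), and STING1 without siMITF + IFNγ replicate 1 (0.0488) and under quantile normalization (0.0197) or median centring (0.0195). IFIH1 with siMITF alone passed without siMITF + IFNγ replicate 1 (0.0106), a library outside that comparison, while the log2 change stayed at -0.592. In a fit of only the 2 conditions compared, the calls of TREX1 with IFNγ in siCTRL cells (limma adjusted p = 0.11) and of IFI16 (0.0821), RIGI (0.132) and DHX58 (0.136) with siMITF under IFNγ were lost, and IFIH1 with siMITF alone passed (0.00151), as it did with a pseudocount of 0.1 (0.0231). Without the filter the calls of EIF2AK2 (0.0782) and TLR3 (0.0504) with siMITF alone and of RIGI (0.0643) and DHX58 (0.0833) under IFNγ were lost. The cause of these changes was not tested. Apart from the calls given beside their values, the replicate block changed no call of a sensor gene. The sources give neither depth nor counts, so the precision of low values such as those of CGAS cannot be stated.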
